A study of Homo sapiens with 6 samples.

Results

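The genes described here make, release and break down prostaglandins: PLA2G2F, PLA2G4A, PLA2G4B, PLA2G10 and PLAAT3 (older symbol PLA2G16) among the phospholipases A2, and PTGS1, PTGS2, PTGES, PTGES2 and HPGD among the prostaglandin enzymes. They were chosen by name, 10 of the 60664 genes in the table, with earlier results of the same contrast known. Their fold changes between the groups are therefore given as a description, without a p-value. For 9 of them the symbol stood in the table, and 1, PLAAT3, was matched through its Ensembl identifier. RNA sequencing was done on the lung cancer cell line PC9OR, a derivative of the lung adenocarcinoma line PC9 by its name. The sources used here do not say what the suffix stands for. The control group, NC, and the GLMP knockdown group, si-GLMP, had 3 libraries each, and no further treatment is given in the labels. The sources used here do not give the knockdown reagent's sequence or the time after transfection. Nothing says that the 3 libraries of a group were separate cultures, so the spread between them may be technical. Both groups carry the same line, so every value below is from 1 cell line.

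Eicosanoids are signalling lipids made from arachidonate, a fatty acid stored in membrane phospholipids. Phospholipases A2 free it, either inside the cell (cytosolic enzymes such as PLA2G4A) or outside (secreted enzymes such as PLA2G2F and PLA2G10). The cyclooxygenases PTGS1 and PTGS2 turn it into prostaglandin H2, terminal synthases such as PTGES and PTGES2 turn that into prostaglandin E2, and HPGD, a hydroxyprostaglandin dehydrogenase, inactivates the product. PTGS1 is generally constitutive and PTGS2 inducible. Many epithelial tumours, lung adenocarcinoma among them, have been described as having high PTGS2 and low HPGD.

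The promoters of the 3 members that passed the threshold of the fit are shown first, because these members were higher in si-GLMP. Each sequence holds the 250 bases before and 50 bases after the RefSeq start site on GRCh38.p14, read 5′ to 3′ on the gene's strand, at chr1:186680374-186680673 (minus strand) for PTGS2, chr9:129752993-129753292 (minus strand) for PTGES and chr1:20139073-20139372 (plus strand) for PLA2G2F. Capitals mark matches, on either strand, to any of 7 motifs.
PTGS2: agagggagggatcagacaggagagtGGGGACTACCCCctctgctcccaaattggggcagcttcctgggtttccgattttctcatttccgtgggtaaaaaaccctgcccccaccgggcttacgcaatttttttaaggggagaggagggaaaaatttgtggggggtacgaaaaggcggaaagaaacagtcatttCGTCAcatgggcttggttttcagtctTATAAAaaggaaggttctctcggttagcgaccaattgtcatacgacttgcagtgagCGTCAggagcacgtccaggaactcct
PTGES: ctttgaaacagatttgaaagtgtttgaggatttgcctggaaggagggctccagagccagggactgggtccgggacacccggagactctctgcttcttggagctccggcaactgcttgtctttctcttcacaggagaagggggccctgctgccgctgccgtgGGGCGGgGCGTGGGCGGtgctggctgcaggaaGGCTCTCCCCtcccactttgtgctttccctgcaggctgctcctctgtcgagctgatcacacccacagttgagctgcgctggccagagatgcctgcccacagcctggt
PLA2G2F: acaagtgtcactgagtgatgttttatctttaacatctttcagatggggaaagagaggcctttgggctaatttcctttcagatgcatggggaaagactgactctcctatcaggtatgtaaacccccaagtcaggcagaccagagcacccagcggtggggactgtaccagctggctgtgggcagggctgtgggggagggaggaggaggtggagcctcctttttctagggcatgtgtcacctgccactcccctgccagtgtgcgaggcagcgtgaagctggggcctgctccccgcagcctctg
The motifs were NF-kB (GGGNNNNNCC), the E-box (CACGTG), the half-site of the cyclic AMP response element (CGTCA), AP-1 (TGANTCA), the TATA box (TATAAA), the GC box (GGGCGG) and EGR1 (GCGNGGGCG). Positions are counted from the start site. In PTGS2, 3 overlapping NF-kB matches began at -225, -224 and -223, cyclic AMP half-sites at -58 and 25, and a TATA box at -32. In PTGES, GC boxes began at -89 and -78, an EGR1 match that overlaps the second of them at -82, and an NF-kB match at -57. PLA2G2F held none of the 7 in this window. Of 35116 promoters of the same length, 58.7% held the NF-kB letters, 24.6% the cyclic AMP half-site, 11.5% the TATA box, 45.0% the GC box, 9.43% the EGR1 letters, 7.71% AP-1 and 7.26% the E-box. Members that were not called or not tested held the same letters at some listed start site. NF-kB letters stood in PLA2G4B, PLA2G10, PLAAT3, PTGS1, PTGES2 and HPGD, and GC boxes in PLA2G10, PTGS1, PTGES2 and HPGD. EGR1 matches stood in PLAAT3 and PTGES2, a TATA box in PTGS1 and a cyclic AMP half-site in HPGD. The matches were thus not particular to the called members. No motif was shared by all 3 called members, and the matches are letters in a window, not measured binding.

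Library totals ran from 19896875 to 22372878 counts, and a count of 3, taken as the floor, was worth 0.134 to 0.151 CPM (the library-scaled count unit in which every library sums to the same total). GLMP, the knocked-down gene and a lysosomal membrane protein, had 309, 344 and 347 counts in NC and 82, 61 and 65 in si-GLMP, a decrease of 79.0%. The share of counts from mitochondrially encoded genes ran from 6.51% to 8.76% across the NC libraries and from 5.19% to 5.51% across the si-GLMP libraries. Each NC library thus lay above every si-GLMP library, with NC replicate 2 the highest. The part of this share in the results below was not tested. Epithelial markers were abundant, with KRT8 at 3349 ± 150 CPM in NC (SD, n = 3), whereas the lung lineage markers NKX2-1, SFTPB and SFTPC had 0 to 6 counts and NAPSA 2 to 13. The lung lineage was thus close to the floor in every library.

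Across the table, 15900 genes were tested by edgeR's quasi-likelihood test. At a Benjamini-Hochberg adjusted p under 0.05, 12.0% of them were called higher in si-GLMP and 11.3% lower, 23.3% in all. Of the 10 members, 8 passed the filter on low counts and 3 were called, all higher: PLA2G2F, PTGS2 and PTGES. The groups did not overlap in CPM in 36.5% of all tested genes (18.5% higher and 17.9% lower). Among the tested members they did not overlap in 4, the 3 just named and HPGD, which was lower. The choice of members used this contrast, so nothing is read from these counts. In bulk RNA, fewer cells with a transcript and less of it per cell cannot be told apart.

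**Figure D1:**
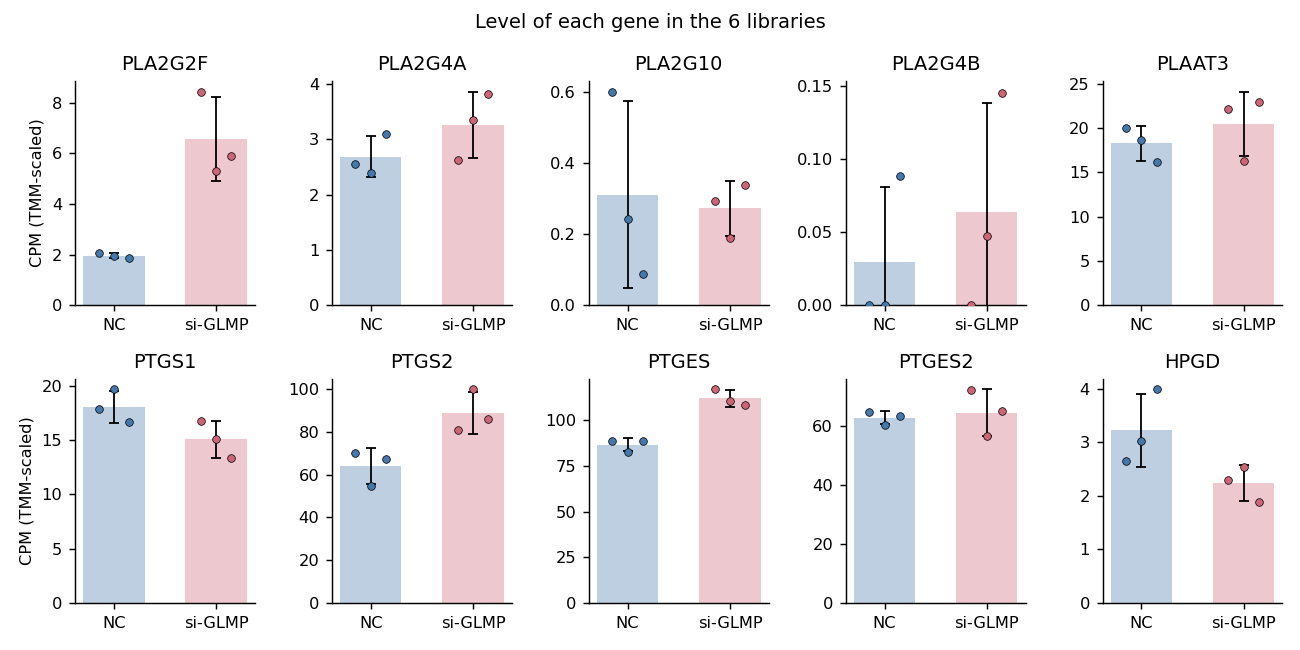
CPM scaled by TMM factors (y axis, from 0, own scale in each panel) of the 10 genes in NC and si-GLMP; points are libraries in replicate order, bars the mean and whiskers the SD of 3. PLA2G2F, PTGS2 and PTGES are higher in each si-GLMP library than in any NC library, HPGD is lower, and in the other panels the groups overlap.

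The secreted phospholipase PLA2G2F (ENSG00000158786; chromosome 1 of GRCh38, 20139326 to 20150386, plus strand) had the largest fold change of the 8 tested members. Its counts were 41, 40 and 42 in NC, and 173, 113 and 122 in si-GLMP. The NC libraries were nearly equal, and the lowest si-GLMP library stood well above them, with si-GLMP replicate 1 apart from the other two. In CPM scaled by TMM, the level went from 1.96 ± 0.0973 to 6.55 ± 1.66 (SD, n = 3 each), 3.34-fold higher, with a log2 fold change of 1.74 ± 0.19 (SE). Without si-GLMP replicate 1 the log2 fold change was 1.52, and the call held. PLA2G2F lies in a cluster of phospholipase genes between PLA2G2D and PLA2G2C. Its neighbours PLA2G2A, PLA2G2E and PLA2G5, other secreted enzymes, had 0 counts in each of the 6 libraries, which allows at most 0.134 to 0.151 CPM. PLA2G2D had 0 to 3 counts per library. PLA2G2C had 19, 11 and 9 counts in NC and 11, 7 and 13 in si-GLMP, a difference of -0.32 ± 0.45 on the log2 scale (adjusted p = 0.667 by edgeR) with overlapping groups. PLA2G2F was thus the one gene of this cluster with 40 or more counts in every library.

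PLA2G10, the secreted enzyme with high activity on phosphatidylcholine membranes (ENSG00000069764; chromosome 16, 14672545 to 14694669, minus strand), was barely detected. It had 12, 5 and 2 counts in NC and 6, 4 and 7 in si-GLMP, and it was not tested. The sums were 19 (exact Poisson 95% interval 11.4 to 29.7) and 17 (9.90 to 27.2), intervals that overlap widely and cover counting error only. A difference was not detectable at this depth.

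Of the cytosolic enzymes, PLA2G4A, the calcium-dependent enzyme selective for arachidonate (ENSG00000116711; chromosome 1, 186828953 to 186988981, plus strand), had 51, 49 and 70 counts in NC and 54, 71 and 79 in si-GLMP. The groups overlapped, since si-GLMP replicate 1 lay inside the NC range. Its level was 2.68 ± 0.370 and 3.27 ± 0.597 CPM (SD, n = 3 each), and the log2 fold change of 0.28 ± 0.21 (SE), with a 95% interval of -0.125 to 0.683, did not pass the threshold. PLA2G4B (ENSG00000243708; chromosome 15, 41837775 to 41848147, plus strand) had 0, 0 and 2 counts in NC and 0, 1 and 3 in si-GLMP, at or under the floor throughout. The annotation gives 75.6% of its exonic bases also to JMJD7-PLA2G4B, a readthrough gene that joins it to its upstream neighbour. Reads from the shared exons could not be assigned to either by position alone, so the PLA2G4B counts are uncertain. JMJD7-PLA2G4B had 20, 18 and 43 counts in NC and 25, 14 and 26 in si-GLMP, a difference of -0.29 ± 0.33 on the log2 scale (adjusted p = 0.592 by edgeR), which turned to 0.15 without NC replicate 3. JMJD7 itself had 3 to 9 counts per library. SPTBN5, a spectrin gene on the opposite strand that shares 4 exonic bases with PLA2G4B, had -0.79 ± 0.19 (edgeR adjusted p = 0.00115).

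PLAAT3, a phospholipase and acyltransferase of intracellular membranes (ENSG00000176485; chromosome 11, 63573195 to 63616883, minus strand), had the most counts of the phospholipase members. It had 399, 383 and 365 counts in NC and 455, 347 and 475 in si-GLMP. In counts and in CPM, si-GLMP replicates 1 and 3 lay above NC. Replicate 2 had the lowest count of the 6 libraries, and in CPM, at 16.3, it lay just above NC replicate 3, at 16.2, inside the NC range. The log2 fold change was 0.17 ± 0.11 (SE), with a 95% interval of -0.053 to 0.384, and was not called. Without si-GLMP replicate 2 it was 0.31 and past the threshold.

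Of the 2 cyclooxygenases, PTGS2 was called and PTGS1 was not. PTGS2, the inducible enzyme (ENSG00000073756; chromosome 1, 186671791 to 186680427, minus strand), had 1402, 1119 and 1522 counts in NC and 1657, 2120 and 1780 in si-GLMP. In CPM the values were 70.3, 54.7 and 67.4 against 80.9, 99.8 and 86.1, with NC replicate 2 the lowest and si-GLMP replicate 2 the highest of the 6 libraries. The mean went from 64.1 ± 8.31 to 88.9 ± 9.79 CPM (SD, n = 3 each), 1.39-fold higher, a log2 fold change of 0.47 ± 0.08 (SE). Leaving out NC replicate 2, the lowest library, gave a log2 fold change of 0.37, still past the threshold.

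PTGS1, the constitutive enzyme (ENSG00000095303; chromosome 9, 122370530 to 122395703, plus strand), had 356, 403 and 377 counts in NC and 343, 322 and 276 in si-GLMP. In CPM the groups met at one point, with the lowest NC library at 16.7 and the highest si-GLMP library also at 16.7. The mean was 18.1 ± 1.51 in NC and 15.1 ± 1.70 CPM in si-GLMP, and the log2 fold change of -0.26 ± 0.11 (SE), with a 95% interval of -0.474 to -0.047, was not past the threshold after adjustment. Without si-GLMP replicate 1 it was -0.34 and past it. The ratio of PTGS2 to PTGS1 per kilobase of exon was 4.33, 3.05 and 4.44 in NC and 5.31, 7.24 and 7.09 in si-GLMP. PTGS2 therefore exceeded PTGS1 per length in every library, and by more in each si-GLMP library than in any NC library.

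PTGS2 and PLA2G4A are neighbours on chromosome 1, in opposite orientation, with 148526 bases between their starts. Between them the annotation holds PACERR, a noncoding RNA that begins beside the PTGS2 start. PACERR, named here outside the naming rule, had 12, 18 and 9 counts in NC and 11, 15 and 7 in si-GLMP. Its log2 fold change was -0.23 ± 0.44 (edgeR adjusted p = 0.762), so of these 3 genes PTGS2 was the one called.

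Among the terminal synthases, PTGES, the inducible microsomal enzyme (ENSG00000148344; chromosome 9, 129738331 to 129753047, minus strand), had 1769, 1685 and 1997 counts in NC and 2393, 2352 and 2235 in si-GLMP. Its CPM values of 88.7, 82.3 and 88.5 in NC and 116.8, 110.7 and 108.1 in si-GLMP were tight within each group and did not overlap. The mean went from 86.5 ± 3.61 to 111.9 ± 4.45 CPM (SD, n = 3 each), 1.29-fold higher, a log2 fold change of 0.37 ± 0.07 (SE). PTGES2, a membrane-associated synthase (ENSG00000148334; chromosome 9, 128120693 to 128128462, minus strand), had 1289, 1233 and 1428 counts in NC and 1479, 1200 and 1342 in si-GLMP. These groups overlapped, since the si-GLMP libraries spanned 56.5 to 72.2 CPM around the NC range of 60.3 to 64.6. The log2 fold change of PTGES2 was 0.04 ± 0.08 (SE), with a 95% interval of -0.113 to 0.194. The ratio of PTGES to PTGES2 per kilobase was 2.20, 2.19 and 2.24 in NC and 2.59, 3.14 and 2.67 in si-GLMP, without overlap.

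HPGD, the enzyme that starts prostaglandin E2 breakdown (ENSG00000164120; chromosome 4, 174490177 to 174523154, minus strand), had 53, 62 and 90 counts in NC and 47, 54 and 39 in si-GLMP. In CPM, NC ran from 2.66 to 3.99 and si-GLMP from 1.89 to 2.54, so the groups were separate by a narrow margin, with NC replicate 3 well above the rest. The mean went from 3.23 ± 0.686 to 2.24 ± 0.331 CPM (SD, n = 3 each). The log2 fold change was -0.53 ± 0.22 (SE), with a 95% interval of -0.952 to -0.107, and did not pass the adjusted threshold with all libraries. It did without NC replicate 1, at -0.64, and without NC replicate 3 it was -0.34. The ratio of PTGES to HPGD per kilobase was 97.3, 79.3 and 64.7 in NC and 148.5, 127.0 and 167.1 in si-GLMP.

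**Figure D2:**
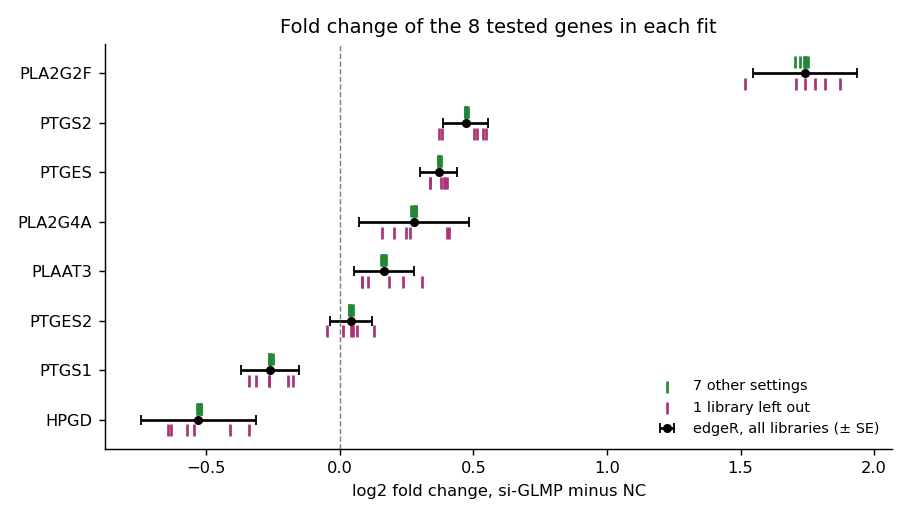
Log2 fold change, si-GLMP minus NC (x axis), of the 8 tested genes: black points are edgeR with all libraries and bars the SE, green ticks the 7 other settings of scaling, filter, block or tool, purple ticks the fits with 1 library left out. PLA2G2F stays between 1.52 and 1.87 and PTGES between 0.34 and 0.40, whereas PTGES2 has ticks on both sides of 0.

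Per kilobase of exon, which allows levels of different genes to be compared, the synthases stood highest. In NC, PTGES had 45.6 ± 1.90 CPM per kb, PTGES2 20.6 ± 0.737, PTGS2 12.2 ± 1.58, PLAAT3 5.87 ± 0.626 and PTGS1 3.12 ± 0.260 (SD, n = 3 each). PLA2G4A followed at 0.934 ± 0.129, HPGD at 0.583 ± 0.124, PLA2G2F at 0.304 ± 0.0151 and PLA2G10 at 0.279 ± 0.236, with PLA2G4B at 0.00664 ± 0.0115. In NC, PLA2G2F and PLA2G10 were the one pair of neighbours in this order whose ranges overlapped. The wide range of PLA2G10, 0.0794 to 0.539, also overlapped that of HPGD, 0.481 to 0.721. In si-GLMP, PLA2G2F, at 1.02 ± 0.258 CPM per kb, stood above HPGD (0.405 ± 0.0599) and overlapped PLA2G4A (1.14 ± 0.208). PTGS2, at 16.9 ± 1.86, there overlapped PTGES2 (21.2 ± 2.58). Exon length was the union over all annotated transcripts, 6440 bases for PLA2G2F, and the transcripts in use in these cells were not determined.

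**Figure D3:**
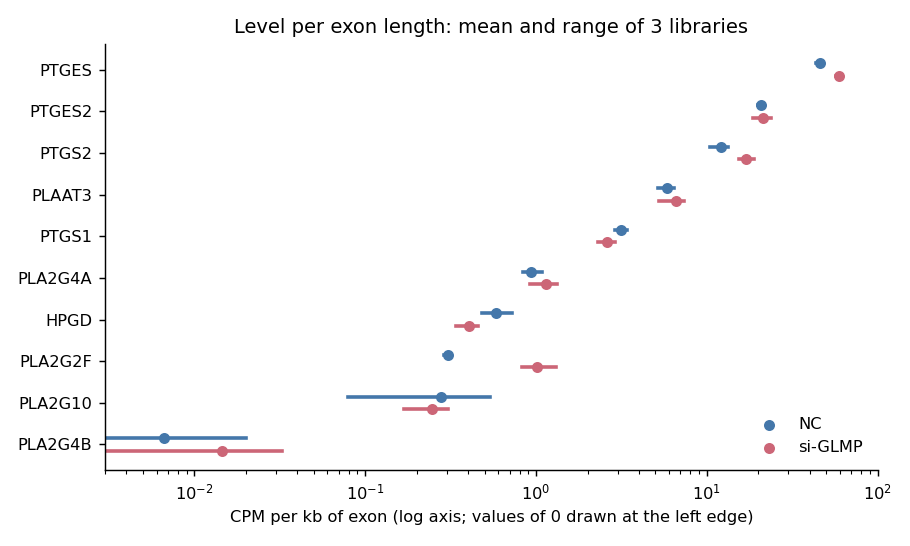
CPM per kilobase of exon (x axis, log scale) of the 10 genes; points are means and lines the range of 3 libraries, blue for NC and red for si-GLMP, and values of 0 are drawn at the left edge. The order runs from PTGES at 45.6 in NC to PLA2G4B near 0, and PLA2G2F moves from beside PLA2G10 to beside PLA2G4A.

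The genes with the most similar pattern were listed for 2 members by Pearson's r of log2 CPM over the 6 libraries, as a description. For PTGS2 they were LRRC8B (0.997), SAR1B (0.994) and MTF2 (0.993), and for PLA2G2F they were PI3 (0.999), PMVK (0.998) and ETFB (0.998). All 6 libraries enter each value, so the group difference is part of it. These genes were picked as the highest among all genes with a symbol and a mean of at least 100 counts. High values therefore come with the choice.

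The other genes of the pathway were taken from lists written by role, 110 genes of which 69 could be tested. The lists too were chosen with earlier results of these data known. Their shares and the adjusted p-values of single genes below are therefore a description, and nothing is read from them about the pathway as a set. Of the 69 tested genes, 18 were called higher and 9 lower, 26.1% and 13.0%, beside 12.0% and 11.3% of all tested genes. The median log2 fold change was -0.04, against 0.00 for all tested genes, and the median absolute value 0.25 against 0.18. The 18 higher genes included 4 aldo-keto reductases, and AKR1C1, AKR1C2 and AKR1C3 among these are close copies of each other.

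**Figure D4:**
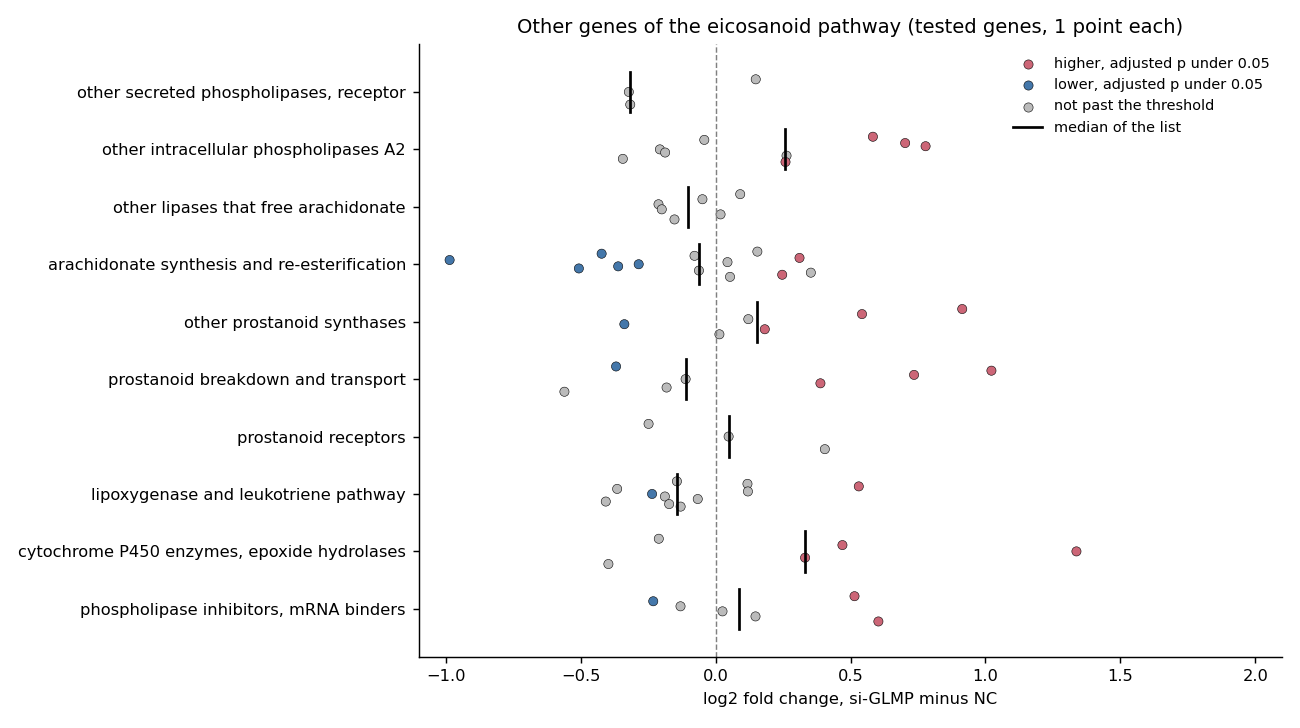
Log2 fold change, si-GLMP minus NC (x axis), of the 69 tested genes of the 10 pathway lists (rows); red points were called higher, blue points lower, grey points neither, and black bars are list medians. The called points lie on both sides of 0, with CYP4F3 farthest right at 1.34 and ELOVL2 farthest left at -0.99.

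Of the 9 tested genes listed as intracellular phospholipases beyond the members, 4 rose, 0 fell and 5 did not pass. This list also holds PLA2G7, a secreted enzyme named outside the naming rule, with -0.19 ± 0.32 (edgeR adjusted p = 0.737). PLA2G4F and PLA2G4D, calcium-dependent enzymes of the PLA2G4B family, rose by 0.78 ± 0.18 (edgeR adjusted p = 0.000786) and 0.70 ± 0.21 (adjusted p = 0.0104). PLA2G4F had 65, 60 and 60 counts in NC and 116, 99 and 100 in si-GLMP, with a clear gap. The PLA2G4D call was lost without si-GLMP replicate 1 (adjusted p = 0.199) or NC replicate 1 (0.0515). PAFAH2, which hydrolyses platelet-activating factor and oxidised phospholipids, rose by 0.58 ± 0.14 (adjusted p = 0.00127). The call of PNPLA8, a calcium-independent phospholipase, at 0.26 (adjusted p = 0.0364), was lost with no filter, by DESeq2 and without NC replicate 1 (0.238), NC replicate 3 (0.0583) or si-GLMP replicate 2 (0.188). Of the 10 genes in the list of other secreted enzymes and their receptor, 3 were tested and 0 passed. PLA2G12A had 0.15 ± 0.11 (adjusted p = 0.359) and the receptor PLA2R1 had -0.32 ± 0.40 (adjusted p = 0.629). None of the 6 lipases that free arachidonate from diacylglycerol or endocannabinoids passed. The monoglyceride lipase MGLL had -0.15 ± 0.07 (adjusted p = 0.125) and passed without si-GLMP replicate 1 (-0.22, adjusted p = 0.0340). DAGLB had -0.20 (adjusted p = 0.111), DAGLA -0.21 (0.187) and ABHD12 0.09 (0.464).

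Genes in the list of arachidonate synthesis and return to phospholipids went both ways, with 2 of 13 called higher and 5 lower, while 6 did not pass (median -0.06). LPCAT2, a lysophosphatidylcholine acyltransferase, fell from 86.8 ± 0.993 to 61.1 ± 4.29 CPM (SD, n = 3 per group), a log2 change of -0.51 ± 0.07 (adjusted p = 2.18e-07 by edgeR). The fatty acid ligase ACSL3 fell by 0.42 on the log2 scale (adjusted p = 1.25e-06). The desaturases FADS2 and FADS1, which act on the route to arachidonate, fell by 0.36 (adjusted p = 0.00100) and 0.28 (0.00126). FADS1 had 2016, 2144 and 2361 counts in NC and 1759, 1823 and 1720 in si-GLMP. The elongase ELOVL2, in this list though it lengthens arachidonate rather than making it, had -0.99 ± 0.33 (adjusted p = 0.0250) from 13 to 37 counts per library. Its call was lost by DESeq2 (0.0603) and without NC replicate 1 (0.191), si-GLMP replicate 1 (0.0887) or si-GLMP replicate 3 (0.0928). The acyltransferase MBOAT2 had 0.25 (adjusted p = 0.0112), lost without NC replicate 2 (0.0783) or si-GLMP replicate 2 (0.106). The ligase ACSL5 had 0.31 (adjusted p = 0.0148), lost without NC replicate 1 (0.0707), NC replicate 3 (0.0528) or si-GLMP replicate 3 (0.0616). ELOVL2, MBOAT2 and ACSL5 are named outside the naming rule.

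Of the 6 other prostanoid synthases tested, 3 rose, 1 fell and 2 did not pass. AKR1B1, an aldo-keto reductase that can form prostaglandin F, rose from 253 ± 16.2 to 477 ± 36.2 CPM (SD, n = 3 per group), by 0.91 ± 0.07 on the log2 scale (adjusted p = 2.01e-16 by edgeR). Its counts of 5211, 4804 and 5960 in NC and 10639, 9698 and 9434 in si-GLMP were far apart. AKR1C3, another reductase that forms prostaglandin F, rose by 0.54 (adjusted p = 4.10e-09). As a close copy of AKR1C1 and AKR1C2 it can share reads with them, so its separate value is uncertain. PTGES3, the cytosolic synthase also known as the HSP90 co-chaperone p23, had 0.18 ± 0.06 (adjusted p = 0.0305). That call was lost with no filter on low counts (0.0503) and without NC replicate 1 (0.0669), NC replicate 2 (0.0717), NC replicate 3 (0.104) or si-GLMP replicate 2 (0.160). PRXL2B, a prostamide and prostaglandin F synthase, had -0.34 ± 0.10 (adjusted p = 0.00705), lost without NC replicate 1 (0.0842), si-GLMP replicate 2 (0.0543) or si-GLMP replicate 3 (0.0862). It shares 13.4% of its exonic bases with MMEL1 on the opposite strand. The synthases of prostaglandin D and prostacyclin were near the floor, with 0 or 1 count of PTGDS and HPGDS and 0 to 4 counts of PTGIS per library.

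In the list of prostanoid breakdown and transport, 3 of 7 genes rose, 1 fell and 3 did not pass. PTGR1, which reduces the product of HPGD, rose from 187 ± 3.38 to 245 ± 5.96 CPM (SD, n = 3 per group), by 0.39 ± 0.06 on the log2 scale (adjusted p = 3.52e-06 by edgeR). Thus PTGR1 was called higher, while HPGD, the step before it, was not called and had a negative change. AKR1C1 rose by 1.02 ± 0.16 (adjusted p = 0.00761) and AKR1C2 by 0.74 ± 0.06 (adjusted p = 1.25e-13). Both are reductases best known for steroid substrates, and as close copies they can share reads, so their separate values are uncertain. ABCC4, an exporter that carries prostaglandin E2, fell by 0.37 on the log2 scale (adjusted p = 0.000207). SLCO2A1, the prostaglandin importer, had 12 to 39 counts per library, and -0.56 ± 0.32 (adjusted p = 0.211) was not past the threshold.

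Prostanoid receptors were sparse. Of 10 listed genes 3 were tested and 0 passed. PTGER4, a receptor of prostaglandin E2, had 291, 308 and 391 counts in NC and 232, 292 and 300 in si-GLMP. In CPM its groups did not overlap, but the log2 fold change of -0.25 ± 0.11 did not pass (edgeR adjusted p = 0.115). The other prostaglandin E2 receptors had 1 to 10 counts (PTGER1), 1 to 13 (PTGER2) and 0 to 3 (PTGER3) per library. PTGFRN, a binding partner of the prostaglandin F receptor, was abundant at 680.3 ± 14.8 and 703.5 ± 22.9 CPM (SD, n = 3 each), with 0.05 ± 0.06 (adjusted p = 0.634). The receptor PTGFR itself had 0 to 3 counts per library. The thromboxane receptor TBXA2R had 0.41 ± 0.35 (adjusted p = 0.443).

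In the lipoxygenase and leukotriene list, 1 of 11 tested genes rose, 1 fell and 9 did not pass. ALOX5, the first enzyme of leukotriene synthesis, rose from 24.0 ± 2.37 to 34.7 ± 0.926 CPM (SD, n = 3 per group), by 0.53 ± 0.09 on the log2 scale (adjusted p = 6.72e-06 by edgeR). Its counts were 456, 547 and 506 in NC and 725, 743 and 695 in si-GLMP. ALOX5AP, the protein that presents arachidonate to it, had 3 to 16 counts per library. LTA4H, which makes leukotriene B4, had -0.24 ± 0.07 (adjusted p = 0.0131), lost without NC replicate 2 (0.0942) or si-GLMP replicate 3 (0.137). LTB4R, a leukotriene B4 receptor, had -0.19 (adjusted p = 0.231) and MGST3, a glutathione transferase, -0.13 (adjusted p = 0.282).

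Of 5 tested cytochrome P450 enzymes and epoxide hydrolases, 3 rose, 0 fell and 2 did not pass. CYP4F3, which hydroxylates leukotriene B4 and arachidonate, had 173, 173 and 210 counts in NC and 388, 467 and 536 in si-GLMP. Every si-GLMP library was far above NC, a rise of 1.34 ± 0.12 on the log2 scale (adjusted p = 1.52e-13 by edgeR). CYP4F11, a related fatty acid hydroxylase, rose by 0.47 (adjusted p = 1.34e-07) and EPHX1, the microsomal epoxide hydrolase, by 0.33 (adjusted p = 0.000207). EPHX2, the soluble hydrolase of epoxides of arachidonate, had -0.40 ± 0.19 (adjusted p = 0.131). In the last list, of phospholipase inhibitors and proteins that bind PTGS2 mRNA, 2 of 6 tested genes rose, 1 fell and 3 did not pass. ANXA1, annexin A1, rose from 497 ± 9.59 to 710.3 ± 32.8 CPM (SD, n = 3 per group), by 0.51 ± 0.06 on the log2 scale (adjusted p = 3.17e-09 by edgeR). ANXA2 had -0.23 ± 0.06 (adjusted p = 0.00453), lost without si-GLMP replicate 3 (0.0682). ZFP36, which destabilises mRNAs with AU-rich elements, PTGS2 among them, rose by 0.60 ± 0.08 (adjusted p = 1.97e-08). TIA1, which represses PTGS2 translation, had 0.15 (adjusted p = 0.180), and ELAVL1, which stabilises PTGS2 mRNA, had -0.13 ± 0.07 (adjusted p = 0.194).

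Cells that are rich in these enzymes were checked by their markers. The 7 leukocyte markers summed to 0.709 to 0.880 CPM in NC and 1.04 to 1.81 CPM in si-GLMP. LYZ, TYROBP and MS4A1 were at 0 in each library and PTPRC had 0 to 5 counts. Most of the leukocyte sum came from CD14, the 1 tested leukocyte marker, at a mean of 0.587 CPM in NC and 0.948 in si-GLMP. CD14 had 0.68 ± 0.39 (edgeR adjusted p = 0.215). The 4 mast cell markers summed to 0 in NC and to at most 0.0976 CPM in si-GLMP. Of the 4 platelet markers PPBP, PF4 and GP9 were at 0, and the sum, all from ITGA2B, was 2.51 to 3.01 CPM in NC and 1.46 to 2.49 in si-GLMP. The 5 fibroblast markers summed to 5.98 to 7.47 and 10.5 to 12.4 CPM. Most of this sum came from COL1A1, at a mean of 5.37 CPM in NC and 10.05 in si-GLMP, which rose by 0.91 (edgeR adjusted p = 1.59e-06). COL1A2 had 2 to 11 counts per library, with means of 0.429 CPM in NC and 0.307 in si-GLMP, and was not tested. PDGFRB had 0.53 ± 0.34 (edgeR adjusted p = 0.2825). DCN and LUM had 0 or 1 count. The 3 endothelial markers summed to 4.81 to 7.67 and 6.77 to 7.58 CPM. The part of the leukocyte and fibroblast sums in the results above was not tested.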

How the data were processed

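The authors deposited 1 table of raw read counts per gene for the 6 libraries. The submitters' processing notes list the aligner HISAT2 and the build GRCh38. The sources used here give neither the counting tool nor its annotation and strand setting. Each of the 6 count columns was matched by title, with 0 left over. The quasi-likelihood F test of edgeR 4.0.16 (R 4.3.3), with robust dispersions, compared the groups with no other term, after filterByExpr (minimum count 10) and TMM scaling. P-values were adjusted by Benjamini-Hochberg over the 15900 tested genes, with a threshold of 0.05. The standard error is the absolute log2 fold change over the root of F, and 95% intervals are normal. Coordinates, exon lengths and overlaps came from GENCODE 29 (GRCh38), promoters from RefSeq. The alternatives tried were RLE or upper-quartile scaling, no filter or 1 CPM in at least 3 libraries, leaving out each library, a replicate block, DESeq2 1.42.0, limma-voom (limma 3.58.1) and an absolute log2 fold change over 1. The test was checked on simulated data. The members and lists were chosen with earlier results of these data known. The naming rule took GLMP, all members, genes that overlap a member or share its transcripts, up to 4 genes per list with the smallest adjusted p, and the 3 genes most like PTGS2 and PLA2G2F (log2 of CPM plus 0.5) with a mean of at least 100 counts.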

Additional observations from a re-analysis of the deposited data

How the results depend on the processing

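The member calls of PLA2G2F, PTGS2 and PTGES, 3 genes, were the same under both other scalings, both other filters, the replicate block, DESeq2 and limma-voom, and all 3 stayed called in each of the 6 fits with a library left out. The members were chosen with this contrast known, and every fit reuses the same libraries. These repeats therefore show the effect of the processing only and are no separate support for the calls. Those 6 fits called 3 to 4 members, 22 to 27 of the other pathway genes (27 with all libraries) and 2804 to 3448 of all genes (3712 with all libraries). The added members were HPGD without NC replicate 1, PTGS1 without si-GLMP replicate 1 and PLAAT3 without si-GLMP replicate 2. Requiring an absolute log2 fold change over 1 left 1 member (PLA2G2F), 2 other pathway genes (CYP4F3 and AKR1C1) and 304 of all genes, by construction of the stricter rule. A sign turned in 3 fits, none past the threshold: PTGES2 without si-GLMP replicate 1, JMJD7-PLA2G4B without NC replicate 3 and PLA2G2C without NC replicate 1; the cause was not tested. With a library left out, these genes ranged from -0.047 to 0.129, from -0.490 to 0.150 and from -0.572 to 0.096. With the replicate number as a block, 3 members, 27 other pathway genes and 3972 of all genes were called. The deviations of same-numbered libraries correlated at 0.062, 0.041 and -0.006 across genes, and those of differently numbered libraries at -0.055 to 0.014. With 3 libraries per group, these values cannot tell whether the numbers pair the libraries. PLA2G10 had 2 to 12 counts per library, PLA2G4B 0 to 3 and HPGD 39 to 90, which limits what can be detected; for PLA2G4B, depth and the assignment of reads shared with JMJD7-PLA2G4B cannot be told apart.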
